A study of Homo sapiens with 4 samples.

Results

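The proteasome genes were examined by RNA-seq in HaCaT, a human keratinocyte cell line, after knockdown of ALKBH5, an enzyme that removes m6A, a methyl mark on adenosine, from RNA. Genes were taken as members when they were listed as protein_coding and their symbol began with PSMA, PSMB, PSMC, PSMD, PSME, PSMF or PSMG followed by a digit, which gave 49 of the 58735 genes in the tables. PSMC3IP meets the letters of this rule but encodes a protein of meiotic recombination and no part of the proteasome, so it is given apart, and 48 proteasome genes remain. The cells received 200 pmol of negative control siRNA (siControl, labelled WT) or of ALKBH5 siRNA (siALKBH5, labelled ALKBH5 knockdown), with 2 libraries per group. All cells of both groups were grown alike and transfected with the same reagent, the labels do not say which ALKBH5 siRNA was used, and a knockdown in 1 cell line leaves part of the target in place. No source used here says that the duplicates came from separate cultures, so the p-values measure the spread between these libraries, which may be technical.

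The proteasome is the protease complex that degrades proteins tagged with ubiquitin in the cytosol and nucleus. Its barrel-shaped core particle is a stack of rings of alpha subunits (PSMA) and beta subunits (PSMB), and PSMB5, PSMB6 and PSMB7 carry the active sites. The regulatory particle caps the core, with a ring of ATPases (PSMC) that unfold the substrate and further subunits (PSMD) that bind and remove ubiquitin. Interferon-treated and immune cells put PSMB8, PSMB9 and PSMB10 in the place of PSMB5, PSMB6 and PSMB7, which gives the immunoproteasome, known for cutting peptides for MHC class I.

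Promoter sequences show which genes share the letters of an interferon-stimulated response element, to which factors of the interferon pathway are known to bind. The letters searched on both strands were GAAA, any 2 bases and GAAA, from 250 bases before to 50 bases after the transcript starts in RefSeq (GRCh38.p14), where 43 of the 49 members had an entry. PSMA7, PSMB1, PSMB6, PSMB7, PSMD4 and PSMG3 had no entry. The letters were present in 7 of the 43 members (16.3%) and in 4.38% of the 27303 genes with an entry. The 7 sites are printed with the matching letters in capitals, 5′ to 3′ along the gene, each in a stretch of 30 bases, because they hold both interferon-inducible activator genes and part of the immunoproteasome.
PSMB8: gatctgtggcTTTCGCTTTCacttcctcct
PSMB10: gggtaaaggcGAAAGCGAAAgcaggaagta
PSME1: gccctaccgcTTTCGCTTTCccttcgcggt
PSME2: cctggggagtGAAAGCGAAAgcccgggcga
PSMG4: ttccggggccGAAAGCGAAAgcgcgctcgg
PSMA4: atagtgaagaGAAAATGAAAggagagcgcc
PSMB4: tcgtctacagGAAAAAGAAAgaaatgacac
PSMB8, PSMB10, PSME1, PSME2 and PSMG4 carried the same letters GAAAGCGAAA on one strand or the other, which were looked for after the sites were seen and were found in 0.125% of all genes with an entry. The sites lie on chr6:32844032-32844061 (minus strand) for PSMB8, chr16:67936852-67936881 (minus) for PSMB10, chr14:24136189-24136218 (plus) for PSME1, chr14:24146619-24146648 (minus) for PSME2 and chr6:3258904-3258933 (plus) for PSMG4. Those of PSMA4 and PSMB4 lie on chr15:78540155-78540184 (plus) and chr1:151399495-151399524 (plus). A match of letters is a description of the sequence and no evidence of binding.

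Library totals were between 16017502 and 18837807 counts, and counts were scaled by TMM and are given as CPM, counts relative to the effective library size. ALKBH5 had 93.8 and 87.6 CPM in the siControl libraries and 51.2 and 49.6 CPM in the siALKBH5 libraries, 55.5% of the control level (log2 fold change -0.85, standard error 0.05, adjusted p = 6.4e-15). All 7 keratinocyte markers were expressed. Of the markers of other cell types, COL1A2, PDGFRB and TYR had 0 counts in every library, and the summed level of the 4 fibroblast markers was 19.9 and 21.1 CPM in siControl and 17.9 and 18.0 CPM in siALKBH5. The summed levels of the melanocyte and immune markers were between 2.42 and 4.23 CPM, and those of the endothelial markers, nearly all from CDH5, were 14.3 and 13.2 CPM in siControl and 8.14 and 8.93 CPM in siALKBH5. All 5 markers of cycling cells were higher in siALKBH5, and their summed level was 913 and 905 CPM in siControl and 1473 and 1469 CPM in siALKBH5. Their part in the changes of the proteasome genes was not tested.

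After ALKBH5 knockdown, 27 of the 34 tested PSMA, standard PSMB, PSMC and PSMD genes were higher and 7 were not called. These 34 leave out PSMC3IP and include the chaperones PSMD5, PSMD9 and PSMD10, which are not part of the finished particle. Of the immunoproteasome genes PSMB9 and PSMB10 were lower. Of the 4 activator genes only PSME1 was called, lower. Of the 7 assembly chaperones, which include those 3 PSMD genes, only PSMD5 was called, higher. All proteasome genes summed made up 4319 and 4314 CPM in the siControl libraries and 5140 and 5220 CPM in the siALKBH5 libraries, 120% of the control level. In bulk RNA, more cells of a kind and more RNA per cell cannot be told apart. Of the 47 members with enough counts for the test, 27 (57.4%) were higher in siALKBH5 and 3 (6.38%) were lower at an adjusted p under 0.05, against 19.3% and 17.3% of the 15075 genes tested. The median log2 fold change of the 47 members was 0.20, and that of all genes tested was -0.0081. PSMC3IP is among the 47 members. Without it, 27 of 46 genes were higher and 3 lower, with a median log2 fold change of 0.18. Calls are more frequent among genes with many counts, and among genes with a mean of at least 500 counts 26 of 40 members were higher and 3 were lower, against 30.6% and 24.5% of such genes. The siALKBH5 libraries were both above both siControl libraries for 34 of the 47 members and both below for 7, against 32.8% and 33.5% of all genes tested. The changes were small, with log2 fold changes of called members between -0.40 and 0.71, whereas 2.92% of all genes were called by edgeR with a log2 fold change above 1 or below -1. At an unadjusted p under 0.05, 30 members were higher and 4 lower, against 3422 and 3231 of the 15075 genes tested. By DESeq2 24 of 48 members were higher and 1 was lower, against 2052 and 1431 of the 27826 genes with any count. These 27826 include genes with too few counts for the edgeR test, so their shares cannot be set beside those of edgeR. Without siControl replicate 2, the median log2 fold change was 0.11 for PSMA, 0.36 for standard PSMB, 0.16 for PSMC and 0.29 for PSMD. That of the immunoproteasome genes was -0.15.

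**Figure D1:**
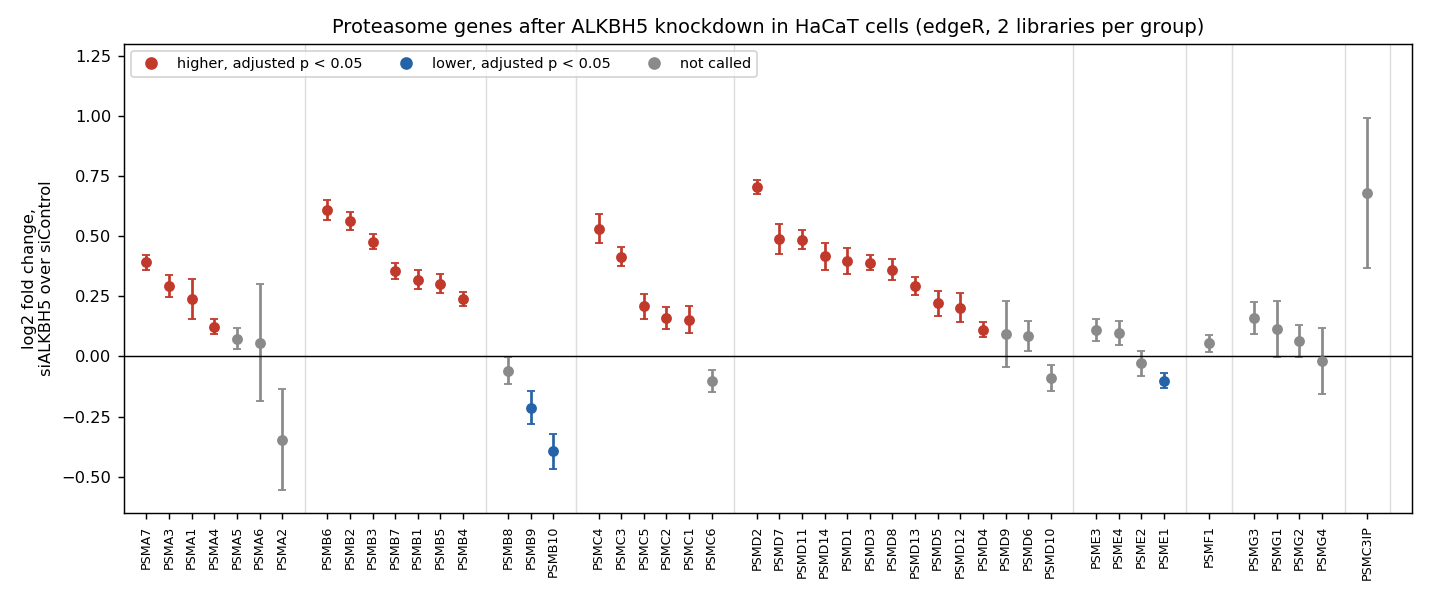
Log2 fold change of siALKBH5 over siControl (vertical axis) for each of the 47 members tested, ordered within its group along the horizontal axis; points are edgeR estimates and bars are 1 standard error, red for higher, blue for lower and grey for not called. The standard beta subunits lie between 0.24 and 0.61, the immunoproteasome subunits between -0.40 and -0.06.

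The alpha subunits form the outer rings of the core, whose gate opens when a regulator binds. Of the 8 PSMA genes 7 were tested, and PSMA1, PSMA3, PSMA4 and PSMA7 were higher in siALKBH5. PSMA7 had 208 and 219.9 CPM in siControl and 278 and 284 CPM in siALKBH5, 31.3% more (log2 fold change 0.39, standard error 0.03, adjusted p = 4.1e-12). The groups of PSMA7 did not overlap, and its rise was the largest among the alpha subunits. PSMA2 had 4.28 and 4.78 CPM in siControl and 3.05 and 4.13 CPM in siALKBH5, which did not pass the test (log2 fold change -0.35, standard error 0.21, adjusted p = 0.21). PSMA5 (log2 fold change 0.07) and PSMA6 (0.06) did not pass the test either. PSMA1 was not called without siControl replicate 1 or without siALKBH5 replicate 2, with a log2 fold change of 0.16 each time, nor by DESeq2, and PSMA4 was not called without siControl replicate 2 (0.08). PSMA8, the alpha subunit of the testis, had 0 counts in all libraries.

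Some members share coding sequence with other genes. In GENCODE 29, whose identifiers and coordinates match those of the tables, 88.6% of the coding bases of PSMA1, all of those of PSMA2 and 70.4% of those of PSMA6 also belong to exons of another gene on the same strand (AC018523.2, AC010132.3 and AL121594.1). In siControl these 3 genes had 7.53, 0.849 and 0.439 CPM per kilobase of gene length, whereas the other 4 alpha subunits, which stand in the same ring, had between 17.4 and 122 CPM per kilobase. PSMB10 shares 60% of its coding bases with AC040162.1 and PSMD9 68.3% with AC069503.2, and no other member shares more than 0.1% on its own strand. Processed copies of PSMA6 held 82 counts over the 4 libraries, 40.8% of the 201 counts of PSMA6 itself. How reads on shared bases were counted is not given in the sources used here, so the levels of these 5 members are uncertain, and the part of the shared bases in their low levels was not tested. On the opposite strand, exons of other genes cover between 10% and 47.7% of the coding bases of PSMB8, PSMC1, PSMC3IP, PSMC5 and PSMD7, and without a stated strand setting reads of such pairs cannot be told apart. In 38 tested members at most 10% of the coding bases, after rounding, are shared with any gene on either strand, and these include PSMC5. Of these 38, 24 were higher and 2 were lower. The 2 lower genes were PSMB9 and PSME1, neither of which was called by DESeq2. PSMB10, which was also lower and was called by DESeq2, is not among the 38.

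Of the standard beta subunits 7 of 7 tested genes, PSMB1 to PSMB7, were higher in siALKBH5 with a median log2 fold change of 0.36. Their summed level was 1059 and 1046 CPM in siControl and 1366 and 1387 CPM in siALKBH5, 30.8% more. All 7 were called under each alternative test, scaling, filter and left-out library. PSMB6, the subunit with caspase-like activity, had 96.4 and 88.5 CPM in siControl and 140.0 and 142 CPM in siALKBH5, a rise of 52.3% (log2 fold change 0.61, standard error 0.04, adjusted p = 1.3e-13). PSMB2, which has no active site, rose from 105 and 107 CPM to 158 and 155 CPM (log2 fold change 0.56, standard error 0.04, adjusted p = 7.2e-14). PSMB3, also without an active site, rose from 189 and 182 CPM to 259.8 and 257 CPM (log2 fold change 0.48, standard error 0.03, adjusted p = 3.6e-14). In each of these 3 genes the groups were far apart compared with the difference between duplicates. PSMB7, the subunit with trypsin-like activity, had 169 and 171 CPM in siControl and 217 and 218 CPM in siALKBH5 (log2 fold change 0.36, standard error 0.03, adjusted p = 9.2e-11). PSMB5, the subunit with chymotrypsin-like activity, had 108 and 104 CPM in siControl and 129.6 and 132 CPM in siALKBH5 (log2 fold change 0.30, standard error 0.04, adjusted p = 2.4e-07). PSMB5 and PSMB7 thus rose with no overlap between the groups. PSMB11, the beta subunit of thymic cortex, had 0 counts in both siControl libraries and 1 count in each siALKBH5 library, below the floor of 3 counts.

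The immunoproteasome subunits take the places of the standard active-site subunits. PSMB8 (ENSG00000204264, chr6:32840717-32844703, minus strand, GRCh38) and PSMB9 (ENSG00000240065, chr6:32844136-32859585, plus strand) overlap in the MHC region, and PSMB10 (ENSG00000205220) lies on chr16:67934502-67937087, minus strand. Of the 3 genes, PSMB9 and PSMB10 fell and PSMB8 was not called, and their summed level was 143 and 153 CPM in siControl and 127 and 133 CPM in siALKBH5. PSMB10 had 39.1 and 37.5 CPM in siControl and 28.2 and 30.1 CPM in siALKBH5 and fell by 23.9% (log2 fold change -0.40, standard error 0.07, adjusted p = 5.5e-05). PSMB9 had 42.9 and 46.7 CPM in siControl and 37.1 and 40.5 CPM in siALKBH5 (log2 fold change -0.21, standard error 0.07, adjusted p = 0.015). The groups of both genes did not overlap, although those of PSMB9 came close to each other. PSMB8 had 60.8 and 68.4 CPM in siControl and 61.8 and 62.5 CPM in siALKBH5, so that both siALKBH5 libraries lay between the siControl libraries (log2 fold change -0.06, standard error 0.06, adjusted p = 0.46). PSMB10 was called with each library left out, with log2 fold changes from -0.44 to -0.34. PSMB9 was not called by DESeq2 (adjusted p = 0.10), without siControl replicate 2 (log2 fold change -0.15) or without siALKBH5 replicate 1 (-0.15), and PSMB8 turned to 0.03 without siControl replicate 2.

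A ratio of counts within a library does not depend on how libraries are scaled. Per kilobase of listed gene length, the ratio of PSMB9 to PSMB6 was 0.210 and 0.249 in siControl and 0.125 and 0.135 in siALKBH5, 56.6% of the control ratio. The ratio of PSMB10 to PSMB7 was 0.224 and 0.212 in siControl and 0.126 and 0.133 in siALKBH5, 59.5% of the control ratio. Both ratios were lower in each siALKBH5 library than in either siControl library. The ratio of PSMB8 to PSMB5 was 0.3325 and 0.387 in siControl and 0.281 and 0.280 in siALKBH5, 78.0% of the control ratio. Per kilobase of the longest basic coding transcript the siControl means were 0.535 for PSMB9 to PSMB6, 0.182 for PSMB10 to PSMB7 and 0.585 for PSMB8 to PSMB5, against 0.229, 0.218 and 0.360 with the listed length, and the percentages of the control ratio were the same. The groups did not overlap in any of the 3 ratios, and the exact two-sided permutation test gave p = 0.33 for each, the smallest value that 2 libraries against 2 allow.

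**Figure D2:**
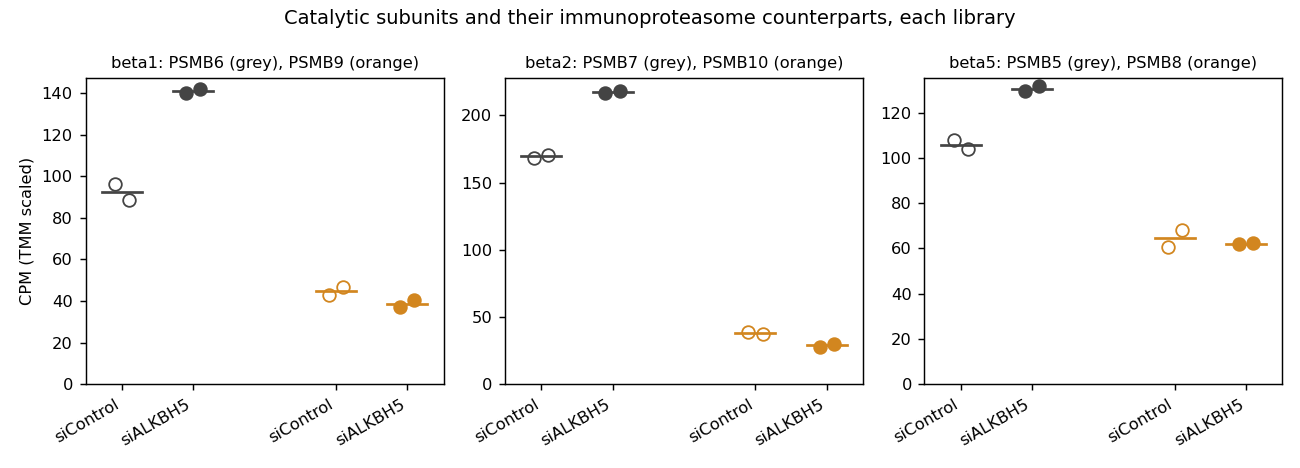
CPM (vertical axis, from 0) of each active-site subunit (grey) and its immunoproteasome counterpart (orange) in each library; open points are siControl libraries, filled points siALKBH5 libraries, and lines are group means. PSMB6, PSMB7 and PSMB5 are higher in siALKBH5, whereas PSMB9 and PSMB10 are lower and PSMB8 overlaps between the groups.

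The ATPases at the base of the regulatory particle unfold the substrate and feed it into the core. Of the 6 PSMC subunits, 5 were higher in siALKBH5 and PSMC6 was not called, with a median log2 fold change of 0.18. PSMC4 had 40.8 and 39.9 CPM in siControl and 59.4 and 57.2 CPM in siALKBH5, a rise of 44.5% with no overlap (log2 fold change 0.53, standard error 0.06, adjusted p = 1.2e-08). PSMC3 had a log2 fold change of 0.42 and PSMC5, PSMC2 and PSMC1 had 0.21, 0.16 and 0.15. PSMC6 had 87.6 and 83.8 CPM in siControl and 80.7 and 78.9 CPM in siALKBH5 (log2 fold change -0.10, standard error 0.05, adjusted p = 0.090), and it was called lower with library sizes alone as the scaling. PSMC1 was called in only 1 of the 4 fits with a library left out, that without siALKBH5 replicate 2, with log2 fold changes from 0.11 to 0.20, and not by DESeq2 or with library sizes alone. PSMC2 was not called without siALKBH5 replicate 1 (0.14), nor PSMC5 without siControl replicate 2 (0.13). Exons of NRDE2 on the opposite strand cover 47.7% of the coding bases of PSMC1, and NRDE2 had 347 to 504 counts per library. PSMC3IP had 25 counts in each siControl library, against 49 and 34 in the siALKBH5 libraries (log2 fold change 0.68, standard error 0.31, adjusted p = 0.087).

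The PSMD group holds further subunits of the regulatory particle and 3 chaperones that assemble its base. Of the 11 subunits, 10 were higher in siALKBH5, PSMD6 was not called, and their summed level rose from 1139 and 1130 CPM to 1467 and 1491 CPM, by 30.4%. PSMD2 (ENSG00000175166, chr3:184298709-184309054, plus strand, GRCh38), the scaffold of the base to which ubiquitin shuttle factors bind, had 186 and 180.4 CPM in siControl and 298 and 299 CPM in siALKBH5. Its rise of 63.0% was the largest among the proteasome genes (log2 fold change 0.71, standard error 0.03, adjusted p = 4.0e-19). PSMD14, the subunit that cuts ubiquitin off the substrate, and its partner PSMD7 had log2 fold changes of 0.42 and 0.49. PSMD11, which links the lid to the base, had 0.49, PSMD1 had 0.40, PSMD3 0.39, PSMD8 0.36 and PSMD13 0.29. PSMD4, a ubiquitin receptor, rose by only 8.06% (log2 fold change 0.11, standard error 0.03, adjusted p = 0.0056), and PSMD12 had a log2 fold change of 0.20. PSMD4 was not called without siALKBH5 replicate 2 (0.09), and PSMD12 was not called by DESeq2, without siControl replicate 2 (0.20) or without siALKBH5 replicate 1 (0.18).

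The assembly chaperones help to build the particle and are not part of its finished form. Of the 7 chaperones, the base chaperones PSMD5, PSMD9 and PSMD10 and the core chaperones PSMG1 to PSMG4, only PSMD5 was called higher (14.3% of them, against 19.3% of all genes tested), with a log2 fold change of 0.22 (adjusted p = 0.00095), and it was not called without siControl replicate 2 (0.14). PSMD10, also named gankyrin, had 59.6 and 61.3 CPM in siControl and 57.2 and 56.3 CPM in siALKBH5 (log2 fold change -0.09, standard error 0.06, adjusted p = 0.22). PSMG3 had 38.2 and 40.2 CPM in siControl and 43.3 and 44.3 CPM in siALKBH5 (log2 fold change 0.16, standard error 0.07, adjusted p = 0.061). PSMG4 had 9.06 and 11.8 CPM in siControl and 10.7 and 9.97 CPM in siALKBH5, a log2 fold change of -0.02 with overlapping groups. The summed level of the 7 chaperones was 241 and 244 CPM in siControl and 256 and 260.4 CPM in siALKBH5, 6.55% more. With 135 to 244 counts per library PSMG1, PSMG4 and PSMD9 were measured with standard errors of 0.12 to 0.14, so changes as small as those of PSMD4 were not detectable in them.

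The activators bind the ends of the core in place of the regulatory particle. PSME1 and PSME2 form the activator that interferon induces, PSME3 acts in the nucleus and PSME4 encodes the large activator PA200. PSME1 had 230.2 and 235 CPM in siControl and 217 and 217 CPM in siALKBH5 and fell by 6.76% (log2 fold change -0.10, standard error 0.03, adjusted p = 0.0097). The groups did not overlap, but PSME1 was not called by DESeq2 (adjusted p = 0.071) or without siControl replicate 2 (log2 fold change -0.09). PSME2 had 66.6 and 64.9 CPM in siControl and 64.2 and 64.6 CPM in siALKBH5, a log2 fold change of -0.03 that was not called. PSME3 had 82.1 and 90.4 CPM in siControl and 93.2 and 93.3 CPM in siALKBH5 (log2 fold change 0.11, standard error 0.05, adjusted p = 0.068), and it was called without siControl replicate 2 (0.18). PSME4 (log2 fold change 0.10) was not called with all libraries and was called without siControl replicate 1 (0.17). PSMF1, which encodes the regulator PI31, had 155 and 163 CPM in siControl and 166 and 164 CPM in siALKBH5 (log2 fold change 0.06, standard error 0.04, adjusted p = 0.25). Of the 7 members with the interferon element letters in their promoter windows, PSMA4 and PSMB4 were higher, PSMB10 and PSME1 were lower, and PSMB8, PSME2 and PSMG4 were not called. Among genes with a mean of at least 500 counts, 30.6% were higher and 24.5% lower. PSMB9, which was also lower, has a promoter entry without these letters.

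**Figure D3:**
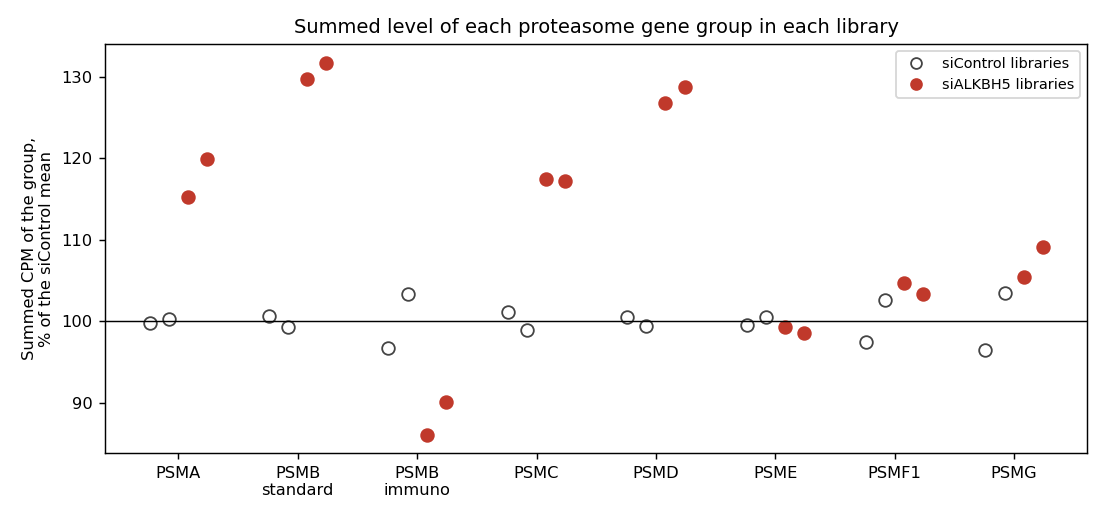
Summed CPM of each gene group in each library as a percentage of the siControl mean of that group (vertical axis, which does not start at 0); open points are siControl and red points siALKBH5 libraries. The PSMA, standard PSMB, PSMC and PSMD groups are above the controls in both siALKBH5 libraries, and the immunoproteasome group is below them. The PSMG and PSMF1 groups are also above both controls and the PSME group below, by less, with siALKBH5 means of 107.2%, 104.0% and 98.93%.

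Levels can be compared between genes only per length. In siControl, PSMB3 with 157, PSME1 with 131, PSMA7 with 122 and PSMB4 with 117 CPM per kilobase of listed gene length were highest. In siALKBH5 the order at the top was PSMB3 with 219, PSMA7 with 161, PSMB4 with 138 and PSME1 with 122 CPM per kilobase. On this length PSME1 was above PSMA7 and PSMB4 in siControl and below them in siALKBH5. The 3 immunoproteasome subunits had between 14.6 and 21.6 CPM per kilobase in siControl, and their standard counterparts had more, up to 95.0 for PSMB7. The listed length is the union of all annotated exons and differs from that of the main transcript, and per kilobase of the longest basic coding transcript PSMB4 with 263 was above PSMB3 with 240.1 in siControl, and PSME1 with 205 was already below PSMA7 with 215. On that length the levels of the immunoproteasome subunits in siControl were 56.6 for PSMB9, 47.8 for PSMB8 and 31.5 CPM per kilobase for PSMB10, so their order changed, and those of PSMB6, PSMB7 and PSMB5 were 106, 173 and 81.8.

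**Figure D4:**
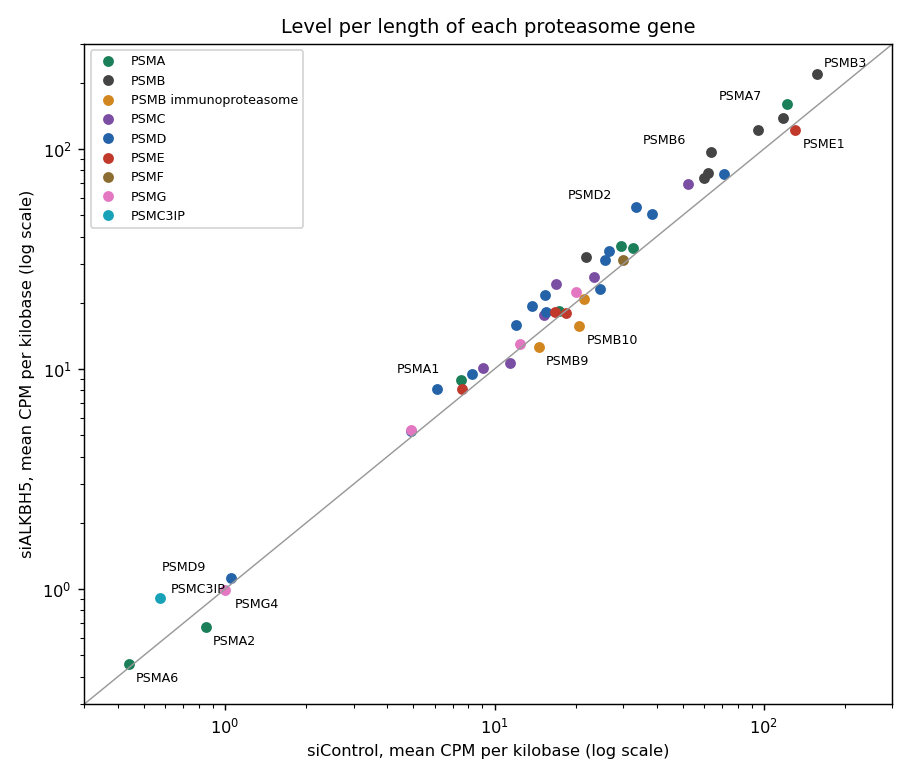
Mean CPM per kilobase of listed gene length in siControl (horizontal axis, log scale) against siALKBH5 (vertical axis, log scale) for each member with counts in siControl, coloured by group, with the line of equal levels. Most alpha, beta, PSMC and PSMD points lie above the line, PSMB9 and PSMB10 lie below it, and PSMA6 and PSMA2 have the lowest levels of the core genes tested.

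Related genes outside the symbol rule were read from a fixed list of 34. Of these, 12 (35.3%) were higher, 5 (14.7%) were lower and 17 were not called, with a median log2 fold change of 0.08. The list holds ADRM1 (log2 fold change 0.31, higher) and SEM1 (-0.13, not called), which encode constituents of the regulatory particle itself. The shares over all genes tested were 19.3% and 17.3%, and those over genes with a mean of at least 500 counts were 30.6% and 24.5%. POMP, the maturation factor of the core, had 74.0 and 75.9 CPM in siControl and 75.6 and 76.9 CPM in siALKBH5, a log2 fold change of 0.02 that was not called. AKIRIN2, which brings proteasomes into the nucleus, rose from 42.6 and 41.1 CPM to 59.0 and 63.0 CPM (log2 fold change 0.54, standard error 0.06, adjusted p = 7.6e-09). UFD1, a cofactor of the segregase VCP, rose from 57.5 and 59.3 CPM to 76.6 and 75.6 CPM (log2 fold change 0.38). These were the largest rises on the list, and the largest falls were those of PITHD1 (-0.27) and of OGT (-0.25), which encodes the O-GlcNAc transferase. PITHD1 was not called without siALKBH5 replicate 1 (-0.19). NFE2L1, the transcription factor known to drive proteasome genes when proteasome activity is low, had 529 and 507 CPM in siControl and 534 and 537 CPM in siALKBH5 (log2 fold change 0.05, standard error 0.02, adjusted p = 0.12), and it was called higher without siControl replicate 1 (0.08). Of the 6 genes listed for NFE2L1 and its control, which include NFE2L1 itself, NFE2L2 and OGT were lower and the other 4 were not called. NFE2L1 activity is set largely at the protein level, which these data do not measure.

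The letters TGACNNNGC, a core of the antioxidant response element that NFE2L1 and NFE2L2 are known to bind, were found on either strand in the promoter windows of 15 of 43 members (34.9%) and of 16.1% of all genes with an entry. Among members, 8 of the 22 higher genes with an entry held them, as did 2 of the 3 lower genes and 5 of the other 18. The sites of 3 higher genes are printed with the match in capitals, which lets the letters between TGAC and GC be compared.
PSMB3: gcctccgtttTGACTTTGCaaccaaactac
PSMD3: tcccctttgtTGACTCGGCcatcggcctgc
PSMC5: gaccggatctGCTGTGTCAgcgccgccctc
They lie on chr17:38752627-38752656, chr17:39980760-39980789 and chr17:63827654-63827683 of GRCh38.p14, all printed along the plus strand. The match of PSMC5 is on the opposite strand, where it reads TGACACAGC. PSMD3 also holds another match, on the opposite strand, which is not printed. The letters CCAAT were found in 21 of 43 members (48.8%) and in 39.7% of all genes with an entry.

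Genes that control the immunoproteasome or act with it in MHC class I presentation were read from a list. Over all genes tested 19.3% were higher and 17.3% lower, and over genes with a mean of at least 500 counts 30.6% and 24.5%. Of the 12 list genes reported here 1 was higher, 5 (41.7%) were lower and 6 were not called in siALKBH5. Their summed level was 2859 and 2872 CPM in siControl and 2354 and 2374 CPM in siALKBH5, and most of this sum and of its fall was B2M. B2M, the light chain of MHC class I, had 1957 and 1980 CPM in siControl and 1512 and 1546 CPM in siALKBH5 (log2 fold change -0.36, standard error 0.02, adjusted p = 7.4e-18). HLA-B fell by 0.36 on the log2 scale, and STAT2 and ERAP1 were also lower. IRF9 was called lower on only 20 to 45 counts per library (log2 fold change -0.91, standard error 0.33, adjusted p = 0.031). TAPBP, which helps to load peptides on MHC class I, was higher (log2 fold change 0.17). TAP1, a peptide transporter whose gene lies within the listed span of PSMB9 on the other strand, had a log2 fold change of -0.01 that was not called.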

How the data were processed

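The authors sequenced poly-A RNA of HaCaT cells, and the 2 siControl and 2 siALKBH5 libraries were grouped by their labels. The deposited counts are raw reads per gene. The submitters' processing notes name HISAT2 2.0.5, featureCounts 1.5.0-p3 and hg38, and the strand setting is not given in the sources used here. The tables also hold FPKM, which the authors scaled in each replicate's table alone, and log2 fold changes with p-values from the authors' comparisons of 1 library with 1; none of these entered a test.

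All 4 libraries were fitted together, without covariates, by the quasi-likelihood test of edgeR 4.0.16 (R 4.3.3) after filterByExpr and TMM scaling. P-values were adjusted over 15075 genes by the Benjamini-Hochberg method, with calls made under 0.05. The common biological coefficient of variation was 0.0253. Library totals were 16017502 and 17877181 counts for siControl and 18837807 and 16618169 counts for siALKBH5, and the floor of 3 counts covers counting error only. The duplicates differed beyond sampling noise (chi-square per degree of freedom 1.74 and 1.85). Alternatives were DESeq2 1.42.0, other scalings and filters, a replicate block and each library left out, and the steps were tested on simulated data. Promoter sequences came from RefSeq (GRCh38.p14), and coding bases from GENCODE 29.

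The members and lists were chosen with earlier results of these data known. Some genes of the list of MHC class I partners are not reported here. By the rule for named genes, all members are named, with values per library for PSMB5 to PSMB10, for the highest and lowest log2 fold change of each group, for the 5 smallest adjusted p-values and for members not tested.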

Additional observations from a re-analysis of the deposited data

How the results depend on the processing

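Of the 27 members that were higher 19 were called under all 10 alternative fits, and of the 3 lower members 1, PSMB10. The number of lower members was 1 with DESeq2, and with a minimum log2 fold change of 1 in size both the higher and the lower count were 0. With each library left out in turn, 23 to 26 members were higher and 1 to 3 lower, and of the related pathway genes 12 to 13 were higher and 3 to 5 lower. With the replicate block, 29 members were higher and 3 lower, the calls gained being PSME3 (0.11) and PSMG3 (0.16), and NFE2L1 was also called (0.05). The deviations of the same-numbered libraries had a correlation of 0.0337 across genes, and with 2 pairs the numbers were not taken to pair the libraries. With library sizes alone, the median log2 fold change was 0.33 for the standard beta subunits and 0.011 for the activators, the median of all genes moved from -0.0081 to -0.03, and 26 members were higher and 4 lower. Over the left-out libraries the medians ranged from 0.106 to 0.164 for PSMA, 0.349 to 0.383 for standard PSMB, -0.272 to -0.147 for the immunoproteasome, 0.161 to 0.227 for PSMC, 0.295 to 0.334 for PSMD, -0.011 to 0.0404 for PSME, 0.022 to 0.094 for PSMF1 and 0.059 to 0.161 for PSMG. Without siControl replicate 2 the sign turned for PSME (median -0.011), PSMA6 (range over left-out libraries -0.0386 to 0.1534), PSMB8 (-0.1348 to 0.0304) and PSMG4 (-0.1908 to 0.19), without siALKBH5 replicate 2 for PSMG4 (0.03) and without siControl replicate 1 for PSMD9 (-0.0222 to 0.2301), none of them called. The cause of these shifts was not tested, except that a fit with a library left out has fewer samples.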
